A study of Camellia sinensis with 9 samples.

Results

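The 3p arms of miR156 precursors were followed over 3 organs of the tea plant (Camellia sinensis), flower, root and leaf. The members are 10 of the 371 named rows of the deposited miRNA table, chosen by name: csn-miR156a_3p, csn-miR156d_3p, csn-miR156f_3p, csn-miR156g_3p, csn-MIR156i_3p, csn-MIR156j_3p, csn-MIR156l_3p, csn-MIR156n_3p, csn-MIR156o_3p and csn-MIR156p-3p, written from here on without the species prefix. Rows with the same sequence were joined, because they hold the same counts, and miR156f_3p and MIR156l_3p are 1 sequence. This left 9 of the 341 distinct sequences. The study sequenced small RNA from untreated plants, with 3 flower libraries (flower1, flower2, flower45), 3 root libraries (root13, root23, root33) and 3 leaf libraries (leaf1, leaf23, leaf41). The labels name no cultivar, plant age or growth condition. They also do not say that the libraries of an organ are separate plants, and p-values then cover only the spread between these libraries, which may be technical.

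miR156 is among the most conserved plant miRNAs. Its hairpin precursors are cut by a Dicer-like enzyme into a short duplex of a 5p and a 3p strand. The 5p strand is the one that Argonaute usually keeps and that guides cleavage of transcripts of SPL genes, transcription factors of the juvenile-to-adult phase change, in which miR172 acts later on AP2-like genes. The 3p strand, formerly called the star strand, is usually degraded. Several precursors can release the same 5p sequence, whereas their 3p strands tend to differ, so that a 3p read says more about which precursor it came from.

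The 3p sequences are shown with bases 2 to 8, the seed of a mature miRNA, in capitals, since the seeds separate them into groups. They are printed 5′ to 3′ from the deposited table.
miR156g_3p: gCUCUCUAgucuucugucauc
MIR156p-3p: gCUCUCUAuucuucugucauc
MIR156i_3p: gCUCUCUAuacuucugucauca
MIR156o_3p: gCUCUCUGuacuucugucauua
miR156a_3p: gCUCACUUcucuucugucauu
MIR156n_3p: gCUCACUUcucuuucugucauu
miR156d_3p: gCUCACUCucuaucugucauc
miR156f_3p and MIR156l_3p: uGCUCACUucucuucugucagc
MIR156j_3p: uGUUCACUucucuucugucagu

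Of the 9 sequences, miR156g_3p, MIR156p-3p and MIR156i_3p share 1 seed, miR156a_3p and MIR156n_3p share another, and the other 4 each have a seed of their own among the members. Seeds also part sequences that are alike but shifted by 1 base. miR156a_3p shares a run of 19 bases with the sequence of miR156f_3p and MIR156l_3p, and a run of 17 with MIR156j_3p. With positions counted from 1 at the 5′ end and the first-named sequence's base first, MIR156p-3p and miR156g_3p differ by U9G alone, and MIR156j_3p and the sequence of miR156f_3p and MIR156l_3p differ by U3C and U22C. MIR156n_3p and miR156a_3p are 1 edit apart, an inserted base. The count of such near-identical sequences depends on how many mismatches the authors' counting allowed, which the sources used here do not give. The letters CUGUC were picked because all 9 members hold them. Searched on the strand as listed, 19 of the 341 sequences of the table hold them (5.57%), of which 11 are miR156 sequences, the members included.

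Of the members, 3 have a 5p row of the same precursor name, and these 5p arms are shown in the same way as the strands against which the 3p reads are set. Of these, miR156a_5p lacks only the last base of the sequence of miR156b_5p and MIR156j_5p, so the limit from allowed mismatches holds for their counts as well.
miR156a_5p: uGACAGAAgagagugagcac
miR156b_5p and MIR156j_5p: uGACAGAAgagagugagcaca
miR156g_5p: uUGACAGAagauagagagcac

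In predicted minimum-energy duplexes with each of the 5 distinct miR156 5p sequences, the members fell into 2 groups. miR156g_3p, MIR156p-3p, MIR156i_3p and MIR156o_3p paired best with miR156g_5p, at -29.7 kcal/mol each and 18 base pairs. For MIR156p-3p the margin was small, with -29.2 for miR156h_5p and -29.1 for the sequence of miR156c_5p and miR156e_5p. With miR156h_5p, miR156g_3p reached -28.5, MIR156o_3p -28.0 and MIR156i_3p -25.9. The remaining 5 paired best, and equally well, with miR156a_5p and with the sequence of miR156b_5p and MIR156j_5p, at -27.6 kcal/mol for MIR156n_3p, -29.6 for MIR156j_3p, -31.4 for both miR156a_3p and miR156d_3p, and -32.0 for the sequence of miR156f_3p and MIR156l_3p. The duplex of a 3p with a 5p sequence is a prediction from the letters and no evidence that both came from 1 hairpin.

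Counted once per sequence, the libraries held 876770 to 1073284 miRNA reads in flower, 369605 to 662023 in root and 476517 to 530334 in leaf. Libraries of 1 organ correlated at r = 0.913 to 0.953 in log2 CPM, taken across sequences (no independent replicates), except for leaf41, which reached 0.741 with leaf1 and 0.781 with leaf23. The members and their arm ratios were refitted without leaf41. Where this changed a call or moved a called fold by over 1.5 times, the value without that library is given. Calls of other sequences against leaf, those of the opposite arms included, were not checked singly without leaf41. The change of a sequence in a whole organ does not tell fewer cells that hold it from fewer copies per cell.

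The 3p strands made up a smaller share of the miR156 reads in the flower libraries than in any root or leaf library. Of all miR156 reads, the 9 sequences took 6.37%, 1.99% and 5.51% in flower1, flower2 and flower45. They took 27.4%, 32.5% and 30.1% in root13, root23 and root33, and 33.8%, 24.0% and 19.0% in leaf1, leaf23 and leaf41. Flower averaged 4.63% ± 2.32, root 30.0% ± 2.53 and leaf 25.6% ± 7.55 (SD, n = 3 each). No flower library overlapped with a root or leaf library, while root and leaf overlapped. The 95% Wilson intervals of single libraries, which cover counting error only, ran from 1.596% to 7.067% over the flower libraries, from 26.6% to 33.28% over root and from 18.35% to 35.39% over leaf. This share compares reads within a library and does not depend on the scaling between libraries. It pools the reads of several precursors, so it can differ through their mix as well as through the ratio of their arms. Of the 3 arm pairs tested below, 0 were called between flower and leaf, where 10.4% of all 67 pairs were called. Which of these contributes was not tested, and 3 pairs are too few to tell.

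In counts, the 9 sequences summed to 332, 76 and 158 reads in the flower libraries, to 3075, 4352 and 3598 in root and to 1230, 1121 and 2550 in leaf. The 5 distinct 5p sequences summed to 4879, 3733 and 2707 reads in flower, to 8140, 9038 and 8371 in root and to 2402, 3545 and 10870 in leaf. In CPM, counts scaled by library size, the 5p sum overlapped between flower (3689 to 5902) and leaf (4763 to 17370), where the 3p sum did not (90.3 to 401.6 in flower, 2173 to 4075 in leaf).

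**Figure D1:**
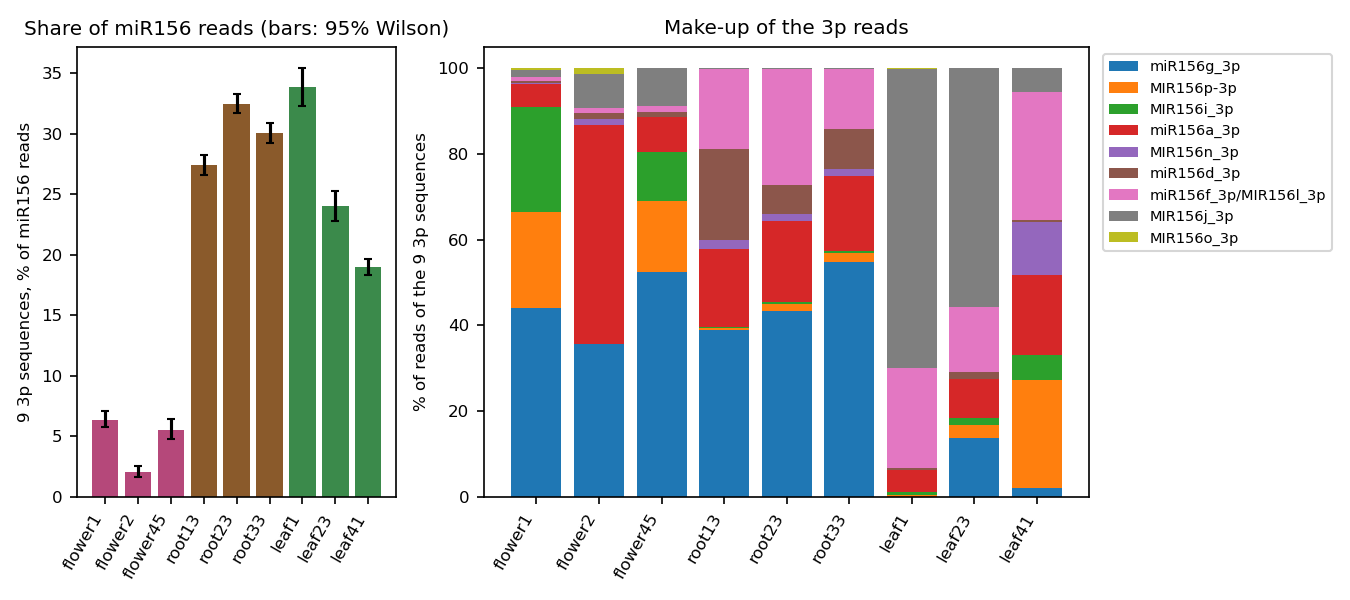
Left, the share of all miR156 reads taken by the 9 3p sequences in each library (bars with 95% Wilson intervals), from 1.99% in flower2 to 33.8% in leaf1. Right, the make-up of the 3p reads of each library in percent, in which miR156g_3p takes most in all 3 root libraries and MIR156j_3p most in leaf1 and leaf23.

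The leading 3p sequence was miR156g_3p in root and in 2 of 3 flower libraries, and another in leaf. miR156g_3p led in all 3 root libraries, with 39.0%, 43.3% and 54.7% of the 3p reads in root13, root23 and root33. It also led in flower1 (44.0%) and flower45 (52.5%), while in flower2, which held only 76 reads of the 9 sequences, miR156a_3p led with 51.3%. MIR156j_3p led in leaf1 (70.0%) and leaf23 (55.7%) but took 5.45% in leaf41, where the sequence of miR156f_3p and MIR156l_3p led with 30.0%. The effective number of 3p sequences, the inverse of the summed squared shares, averaged 2.93 ± 0.37 for flower, 3.29 ± 0.49 for root and 3.11 ± 1.48 for leaf (SD, n = 3 each).

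Each sequence was tested with edgeR's quasi-likelihood test over all 129 sequences that passed the low-count filter, with Benjamini-Hochberg adjustment over these 129 and a threshold of 0.05, and every adjusted p of a sequence comes from this fit unless another is named. Of the 9 members, 8 entered the test. MIR156o_3p did not, with 1, 1 and 0 reads in flower1, flower2 and flower45, 0 in all root libraries, and 1, 0 and 0 in leaf1, leaf23 and leaf41. Since the filter keeps sequences that are well counted in at least 1 organ, the counts of calls describe these 8 only. Between flower and root, 5 of the 8 were lower in flower and 0 higher, where 42.6% of all tested sequences were called, 24% lower and 18.6% higher. Between flower and leaf, 5 were lower in flower and 0 higher, where 36.4% of all were called, 19.4% lower and 17.1% higher. The counts of 0 were the same at an unadjusted p of 0.05 and with DESeq2. Between root and leaf, 2 were higher and 1 lower in root, where 34.9% of all were called, 21.7% higher and 13.2% lower. The median log2 fold change of the 8 was -5.15 for flower over root (-0.04 over all tested), -3.61 for flower over leaf (-0.12 over all) and 0.19 for root over leaf (0.56 over all).

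**Figure D2:**
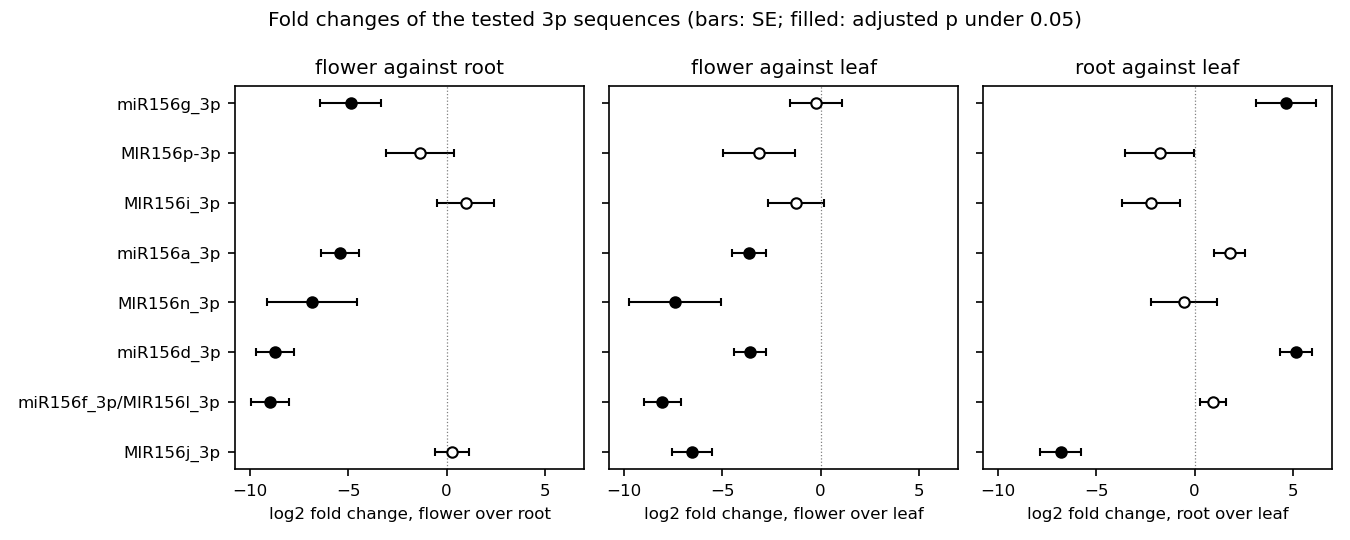
The log2 fold change of the 8 tested 3p sequences (points, with SE bars) for flower over root, flower over leaf and root over leaf. Filled points have an adjusted p under 0.05 by edgeR, 5 of them below 0 in each comparison with flower, while root over leaf has 2 filled points above 0 and 1 below.

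The scaling between libraries moved the median of all tested sequences by -0.56 for root over leaf with the DESeq2 size factors, and by up to 0.67 for flower over root and 0.58 for flower over leaf with the authors' divisor. With rows of the same sequence not joined it moved by -0.91 for root over leaf and -1.04 for flower over leaf. The called members stayed called and kept their direction under all 5 scalings. Relative to the median, flower over root lay between -9.05 and -8.91 for the sequence of miR156f_3p and MIR156l_3p and between -8.89 and -8.67 for miR156d_3p. Root over leaf lay between -7.50 and -7.28 for MIR156j_3p.

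miR156g_3p was the most abundant 3p sequence in root. It had 146, 27 and 83 reads in flower1, flower2 and flower45, 1199, 1884 and 1969 in root13, root23 and root33, and 0, 154 and 49 in leaf1, leaf23 and leaf41. All root libraries lay above all others, and flower and leaf overlapped. It averaged 107 ± 72.4 CPM over flower, 3148 ± 1060 over root and 126 ± 155 over leaf (SD, n = 3 each), and 0 reads in leaf1 allow up to 5.95 CPM. Flower was lower than root by log2 -4.87 ± 1.54 (SE, adjusted p = 0.0291) and root was higher than leaf by log2 4.65 ± 1.52 (adjusted p = 0.0425), while flower over leaf stood at log2 -0.23 ± 1.31 (adjusted p = 0.918).

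Both calls of miR156g_3p were lost without single libraries. That of flower and root was lost without any 1 of the 6 flower and root libraries (log2 -5.30 to -4.26, adjusted p = 0.0558 to 0.11). It was made without leaf1, leaf23 or leaf41 in turn (adjusted p = 0.00449 to 0.027) and with only these 6 (log2 -4.7, adjusted p = 0.00189). That of root and leaf was lost without any 1 of these 6 (log2 3.45 to 4.75, adjusted p = 0.0577 to 0.104) and without leaf41 (4.27, adjusted p = 0.0573), and it was made without leaf1 (3.92, adjusted p = 0.0291) and without leaf23 (6.17, adjusted p = 0.0462). With only the 6 root and leaf libraries it stood at 3.39 (adjusted p = 0.139), and against a minimum fold of 2 its adjusted p was 0.0676.

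Its 5p partner passed the test in no comparison. miR156g_5p, the most abundant miR156 sequence of the table, had 4517, 3378 and 2429 reads in flower1, flower2 and flower45, 5371, 6538 and 5998 in root13, root23 and root33, and 1236, 2325 and 6445 in leaf1, leaf23 and leaf41. Its adjusted p-values by edgeR missed the threshold (adjusted p = 0.0678 for flower and root, 0.545 for flower and leaf, 0.173 for root and leaf). After scaling, all flower libraries (3310 to 5464 CPM) still lay below all root libraries (9636 to 12980 CPM), and leaf overlapped with both. Flower over root stood at log2 -1.37 ± 0.54 (SE). The reads of miR156g_3p amounted to 3.23%, 0.799% and 3.42% of those of miR156g_5p in flower1, flower2 and flower45, to 22.3%, 28.8% and 32.8% in root13, root23 and root33, and to 0%, 6.62% and 0.760% in leaf1, leaf23 and leaf41. The ratio of the root libraries lay above those of all flower and leaf libraries.

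The ratio of 3p to 5p reads within a library needs no scaling, and it was tested with limma for all 67 arm pairs with at least 10 reads over both arms in at least 3 libraries, on the log2 scale with 0.5 reads added to each arm. Of the members, miR156a, miR156g and MIR156j have such a pair. For miR156g the log2 ratio was 5.55 ± 1.497 higher in root than in leaf (SE, adjusted p = 0.03), and for flower over root it stood at -3.73 ± 1.497 (adjusted p = 0.079). For flower over leaf it stood at 1.82 ± 1.497 (adjusted p = 0.402). Since leaf1 had 0 reads of miR156g_3p, the size for root over leaf depends on the reads added. It was log2 5.21 with 1 read added and 4.86 with 2, both called. The call for root and leaf was lost without root13, root23, root33, flower1 or flower45 in turn (log2 5.42 to 5.70, adjusted p = 0.0519 to 0.101), and with only the 6 root and leaf libraries (adjusted p = 0.0902). The call was made, at other sizes, without leaf1 (log2 3.61, adjusted p = 0.041) and without leaf23 (log2 7.29, adjusted p = 0.00445). The difference between flower and root was called without leaf1 (adjusted p = 0.00954) or without leaf23 (0.0282). Of all pairs, 31.3% were called between flower and root (14.9% higher, 16.4% lower), 10.4% between flower and leaf (2.99% higher, 7.46% lower) and 16.4% between root and leaf (10.4% higher, 5.97% lower).

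MIR156p-3p and MIR156i_3p, which carry the seed of miR156g_3p, were highest in leaf41. MIR156p-3p had 75, 0 and 26 reads in flower1, flower2 and flower45, 15, 74 and 82 in root13, root23 and root33, and 4, 33 and 647 in leaf1, leaf23 and leaf41. MIR156i_3p had 81, 0 and 18 reads in the flower libraries, 5, 17 and 12 in root and 9, 19 and 147 in leaf, in the same library order. Both had no read in flower2, where 0 reads allow up to 3.57 CPM, and the organs overlapped.

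Neither sequence was called in any pair of organs (adjusted p = 0.224 to 0.513 for MIR156p-3p and 0.246 to 0.567 for MIR156i_3p). Of MIR156p-3p and miR156g_3p, a single base apart, MIR156p-3p had more reads in leaf41. There MIR156p-3p had 647 reads and miR156g_3p 49, whereas in root23 MIR156p-3p had 74 and miR156g_3p 1884. For root over leaf, MIR156p-3p stood at log2 -1.77 ± 1.76 with leaf41 and at 1.44 without it (adjusted p = 0.428), and for flower over leaf at -3.13 ± 1.85 with it and 0.30 without it (adjusted p = 0.897).

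**Figure D3:**
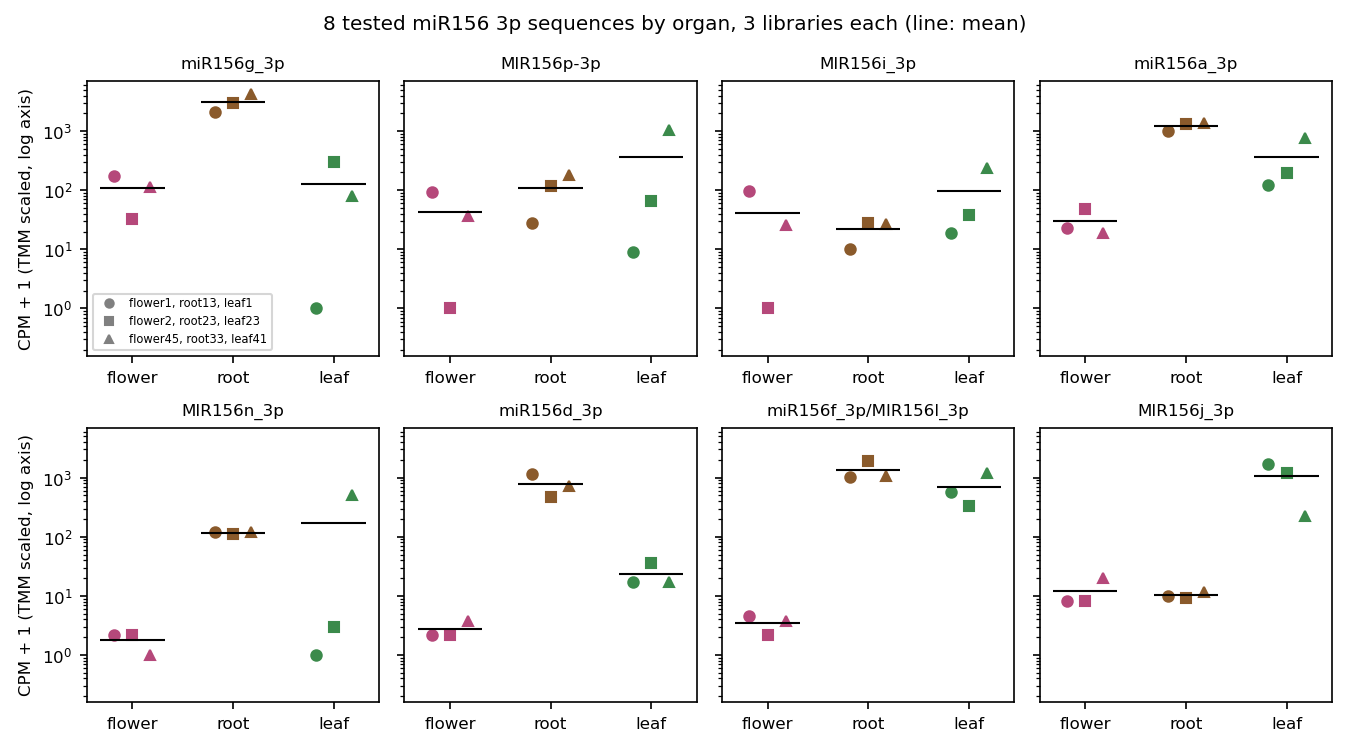
CPM plus 1 on a log axis for the 8 tested 3p sequences in flower, root and leaf (points are libraries, lines are means). miR156d_3p is highest in the 3 root libraries and MIR156j_3p in the 3 leaf libraries, while in flower miR156d_3p and the sequence of miR156f_3p and MIR156l_3p have 1 to 3 reads per library.

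miR156a_3p, which belongs to the group that pairs best with miR156a_5p, had its own lowest values in flower. It had 18, 39 and 13 reads in flower1, flower2 and flower45, 557, 824 and 635 in root13, root23 and root33, and 62, 101 and 476 in leaf1, leaf23 and leaf41. No organ overlapped with another after scaling, with 28.6 ± 15.5 CPM on average for flower, 1233 ± 204 for root and 360 ± 349 for leaf (SD, n = 3 each). Flower fell below root at log2 -5.42 ± 0.94 (SE, adjusted p = 0.00197) and lower in flower than in leaf by log2 -3.64 ± 0.87 (adjusted p = 0.00965), a call lost without flower1 (log2 -3.49, adjusted p = 0.0514). Without leaf41, which at 476 reads held most of the leaf reads, flower over leaf stood at -2.40 (adjusted p = 0.0155). Root over leaf stood at log2 1.78 ± 0.80 (adjusted p = 0.106), and at 2.86 without leaf41, where it was called (adjusted p = 0.0111).

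The ratio of miR156a_3p to its 5p partner passed the test in no comparison. miR156a_5p had 69, 104 and 42 reads in flower1, flower2 and flower45, 2170, 1426 and 1411 in root13, root23 and root33, and 109 in leaf1 and 2959 in leaf41, with leaf23 near leaf1. The reads of miR156a_3p amounted to 26.1%, 37.5% and 31.0% of these in the flower libraries, to 25.7% in root13 and 57.8% in root23 with root33 between them, and to 56.9%, 64.7% and 16.1% in the leaf libraries. The 3 organs overlapped, and leaf41 was the lowest of all. The log2 ratio differed by -0.35 ± 0.74 for flower over root (SE, limma, adjusted p = 0.798), by -0.30 ± 0.74 for flower over leaf (adjusted p = 0.821) and by 0.06 ± 0.74 for root over leaf (adjusted p = 0.942). Of the tested miR156 sequences, miR156a_5p was also nearest to miR156a_3p in its pattern, with a root mean square difference of 0.62 between their centred log2 CPM over the 9 libraries.

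**Figure D4:**
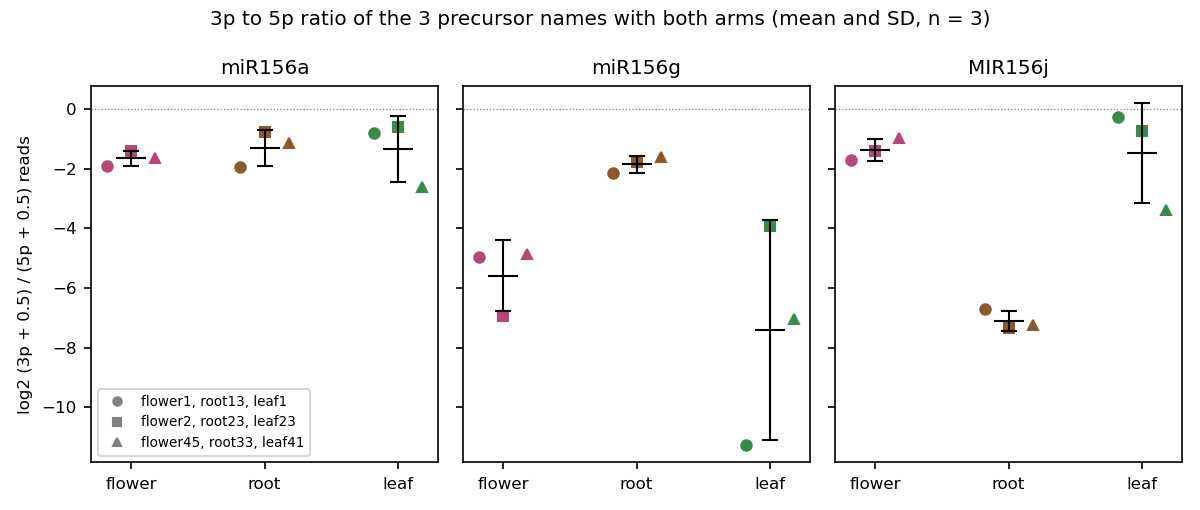
The log2 ratio of 3p to 5p reads, with 0.5 reads added to each, for the precursor names miR156a, miR156g and MIR156j in flower, root and leaf (points are libraries, black marks are the mean and SD, n = 3). miR156a overlaps between the organs, miR156g is highest in root and MIR156j is lowest in root.

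MIR156n_3p, the sequence 1 base longer than miR156a_3p, had 1, 1 and 0 reads in flower1, flower2 and flower45, 66, 69 and 55 in root13, root23 and root33, and 0, 1 and 317 in leaf1, leaf23 and leaf41. It was even among the root libraries (116 ± 4.44 CPM, SD, n = 3), whereas nearly all of its leaf reads lay in leaf41. Flower was lower than root by log2 -6.84 ± 2.29 (SE, adjusted p = 0.0371), and the ratio of summed counts, scaled for library size, was 139 for root over flower (95% interval of counting error 38.0 to 1156). This call was lost without any 1 of the 6 flower and root libraries (log2 -7.04 to -6.10, adjusted p = 0.065 to 0.11). It was made with only these 6 (log2 -6.66, adjusted p = 0.000633) and without leaf1, leaf23 or leaf41 in turn (adjusted p = 0.000369 to 0.0244).

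The leaf values of MIR156n_3p rest on leaf41. For flower over leaf it was called at log2 -7.38 ± 2.33 (adjusted p = 0.0326) although the libraries overlapped, and it stood at -0.14 without leaf41 (adjusted p = 0.97). It was -7.99 without leaf1 and -7.98 without leaf23. The call was also lost without flower1, flower2, flower45 or root23 in turn (adjusted p = 0.0506 to 0.111). Root over leaf stood at log2 -0.55 ± 1.67 (adjusted p = 0.774) with leaf41 and at 6.56 without it (adjusted p = 0.00206). In leaf41 there were 476 reads of miR156a_3p to 317 of MIR156n_3p, while leaf23 had 101 of miR156a_3p and 1 of MIR156n_3p.

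miR156d_3p was highest in root. It had 1, 1 and 2 reads in flower1, flower2 and flower45, 652, 295 and 339 in root13, root23 and root33, and 8, 18 and 10 in leaf1, leaf23 and leaf41, and no organ overlapped with another. It averaged 1.71 ± 0.88 CPM over flower, 793 ± 351 over root and 22.2 ± 11.0 over leaf (SD, n = 3 each). Root exceeded leaf by log2 5.14 ± 0.80 (SE, adjusted p = 0.00116), and flower was lower than root by log2 -8.72 ± 0.95 (adjusted p = 0.000224). With only 4 reads in flower, the scaled ratio of summed counts, root over flower, was 471 (95% interval of counting error 183 to 1730). Flower was also lower than leaf, by log2 -3.57 ± 0.80 (adjusted p = 0.00777), a ratio of 13.1 for leaf over flower (95% interval of counting error 4.71 to 50.8). These 3 calls were made under all 17 alternatives, though without flower45 root over leaf stood at log2 4.19 and flower over leaf at -4.74. No 5p row of the table carries the name miR156d.

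The sequence of miR156f_3p and MIR156l_3p was abundant in root and leaf and had 6 reads in all of flower. It had 3, 1 and 2 reads in flower1, flower2 and flower45, 576, 1184 and 501 in root13, root23 and root33, and 285, 171 and 765 in leaf1, leaf23 and leaf41. All flower libraries lay far below the others, and root and leaf overlapped, with 2.52 ± 1.23 CPM on average for flower, 1341 ± 490 for root and 706 ± 462 for leaf (SD, n = 3 each). Flower was lower than root by log2 -8.95 ± 0.97 (SE, adjusted p = 0.000224) and lower than leaf by log2 -8.03 ± 0.94 (adjusted p = 0.000191). Without leaf41, flower over leaf stood at log2 -7.26 (adjusted p = 0.000142). The scaled ratios of summed counts were 552 for root over flower (95% interval of counting error 253 to 1505) and 297 for leaf over flower (136 to 811). Root over leaf stood at log2 0.92 ± 0.68 (adjusted p = 0.286). Its reads cannot be divided between the names miR156f and MIR156l, and neither has a 5p row.

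MIR156j_3p was highest in leaf. It had 6, 6 and 14 reads in flower1, flower2 and flower45, 5 in each of root13, root23 and root33, and 861, 624 and 139 in leaf1, leaf23 and leaf41. All 3 leaf libraries lay above the others, with leaf41 the lowest of them, and flower and root overlapped. It averaged 11.2 ± 6.86 CPM over flower, 9.28 ± 1.41 over root and 1046 ± 756 over leaf (SD, n = 3 each). Flower was lower than leaf by log2 -6.53 ± 1.02 (SE, adjusted p = 0.0014) and root was lower than leaf by log2 -6.79 ± 1.04 (adjusted p = 0.00116), both called under all 17 alternatives, and without leaf41 at log2 -6.92 for flower over leaf and -7.33 for root over leaf. Without flower45 they stood at -7.94 and -7.88. Flower over root stood at log2 0.26 ± 0.86 (adjusted p = 0.813). MIR156j_3p was thus called in the opposite direction to miR156d_3p and miR156g_3p between root and leaf.

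Its 5p partner was not called between root and leaf. The sequence of miR156b_5p and MIR156j_5p, whose reads cannot be divided between these names, had 21, 17 and 28 reads in flower1, flower2 and flower45, 574, 887 and 838 in root13, root23 and root33, and 1052, 1056 and 1462 in leaf1, leaf23 and leaf41. Root over leaf stood at log2 -0.60 ± 0.51 (SE, adjusted p = 0.34), while flower was lower than root by log2 -5.66 ± 0.62 (adjusted p = 0.000224) and lower than leaf by log2 -6.26 ± 0.64 (adjusted p = 8.9e-05). The reads of MIR156j_3p amounted to 28.6% of these in flower1 and 35.3% in flower2 and were highest of the flower libraries in flower45 (14 reads of the 3p, 28 of the 5p). They amounted to 0.871%, 0.564% and 0.597% in root13, root23 and root33, and to 81.8%, 59.1% and 9.51% in leaf1, leaf23 and leaf41. The root libraries lay below all others, and flower and leaf overlapped.

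By limma the log2 ratio of MIR156j was higher in flower than in root by 5.72 ± 0.87 (SE, adjusted p = 0.00133) and lower in root than in leaf by -5.62 ± 0.87 (adjusted p = 0.00116), both called under all 14 alternatives. Root over leaf stood at -5.02 without leaf1 and at -6.57 without leaf41. For flower over leaf the log2 ratio differed by 0.10 ± 0.87 (adjusted p = 0.922). In flower both arms were rare, so that this ratio rests on 6 to 14 reads of the 3p and 17 to 28 of the 5p sequence per library. Of the tested miR156 sequences, this shared 5p sequence was the nearest in pattern to MIR156j_3p, at a root mean square difference of 2.80. It was also the nearest to the sequence of miR156f_3p and MIR156l_3p, at 1.32. That 3p sequence pairs with it in the predicted duplex at the lowest energy of all 9 members. It pairs equally well with miR156a_5p, from which it differed by 2.175 in pattern. Nearest to miR156g_3p was the sequence of miR156c_5p and miR156e_5p (2.45), with miR156g_5p at 2.94.

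Outside the family, the 2 tested sequences with the nearest pattern over the 9 libraries were taken for each member by the root mean square difference of centred log2 CPM. For MIR156j_3p these were miR167e_3p (1.51) and the sequence of miR535a_3p and miR535c2_3p (1.51), and for miR156d_3p the sequence of miR171b_3p and miR171m_3p (1.38) and MIR171leave_5p (1.40). miR156a_3p was nearest to miR535b_5p (0.999) and miR535b_3p (1.011), miR156g_3p to MIR319d_5p (1.86) and the sequence of miR171b_3p and miR171m_3p (2.24), and the sequence of miR156f_3p and MIR156l_3p to miR535b_3p (2.21) and miR4376_5p (2.53). MIR156n_3p was nearest to miR535d_5p (1.23) and MIR169i_3p (1.52), and MIR156p-3p to miR535b_5p (2.06) and miR535b_3p (2.08). MIR156i_3p was nearest to the sequence of miR393b_5p and miR393c_5p (1.72) and to MIR7122a_5p (1.78). The median difference over all tested sequences outside the family was 2.70 to 4.15, depending on the member.

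Of the other tested sequences of the phase change pathway, 17 in all, 4 were higher and 7 lower in flower than in root, 4 higher and 10 lower in flower than in leaf, and 2 higher and 6 lower in root than in leaf. Over all tested sequences the shares were 18.6% higher and 24% lower, 17.1% and 19.4%, and 21.7% and 13.2%, in the same order. They comprise 5 miR156 5p sequences, 6 of miR535, a relative of miR156, and 6 of miR172, which acts later in the phase change. Of miR535, 0 were higher and 4 lower in flower than in root, 0 and 5 in flower than in leaf, and 0 and 3 in root than in leaf. Of miR172, 3 were higher and 0 lower in flower than in root, 3 and 3 in flower than in leaf, and 1 and 3 in root than in leaf. At an unadjusted p of 0.05 the counts of 0 were 0 as well. None of the calls on this list was checked without leaf41. The miR156 5p sequences had 3 lower and 1 higher in flower than in root, and 2 lower and 1 higher in flower than in leaf, the higher one being miR156h_5p (log2 2.96 ± 0.98 over root, SE, adjusted p = 0.0365). Its 3p row, miR156h_3p, had a total of 1 read over the 9 libraries, in flower45. Between root and leaf 1 of the 5 was called, the sequence of miR156c_5p and miR156e_5p, higher in root (log2 6.07 ± 1.60, adjusted p = 0.0257). It had 9, 165 and 101 reads in root13, root23 and root33, and 0, 0 and 4 in leaf1, leaf23 and leaf41, so its fold rests on few leaf reads.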

How the data were processed

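Small RNA was sequenced from 9 libraries, 3 each of flower, root and leaf. Per the labels' protocols, total RNA came from TRIzol extraction and went into Illumina libraries depleted of ribosomal RNA. Of alignment, counting, allowed mismatches and genome build, each is not given in the sources used here. Per the file headers the deposited table holds counts, which are whole numbers and not normalised, and beside them a normalised score called RPTM, which the authors rounded. The score equals the count divided by 1 constant per library and was used only to find that divisor. A blank row (1 row, 0 counts) was left out.

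Rows of the same sequence, with T read as U, were joined: 59 rows shared 29 sequences, with equal counts. For these, edgeR 4.0.16 under R 4.3.3 was used (glmQLFit, glmQLFTest, TMM scaling, filterByExpr per organ), with a single model of organ over the 9 libraries. CPM follow TMM scaling of the joined counts. Each SE was taken as |log2 fold change| over the root of its F value. Arm ratios were tested with limma 3.58.1, with a trend on abundance. Duplexes were predicted with RNAduplex of ViennaRNA 2.7.2. Alternatives were DESeq2 1.42.0, other scalings and filters, pseudocounts, a minimum fold of 2, fits of just the 6 libraries compared, unjoined rows and leaving out each library. Where a library has 0 reads, 3 counts are the limit given. The members, lists and tests were chosen with earlier results of these data known. Named were all members, their 5p arms and the 2 sequences nearest in pattern to each.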

Additional observations from a re-analysis of the deposited data

Results flagged for a closer look

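The 4 miR156 3p rows outside the members were nearly empty, and 1 of them held reads above the 3 that a count of 0 allows. miR156c_3p had 6 reads in root23 and 0 in the other 8 libraries, while its 5p sequence, shared with miR156e_5p, had 165 reads in root23, 101 in root33 and 9 in root13. miR156h_3p, MIR156k_3p and MIR156m_3p had 1, 4 and 4 reads over all libraries.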

How the results depend on the processing

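Of 403 fold changes of members under alternatives, 363 kept their direction and their side of the threshold, 27 lost and 3 gained the call and 10 turned. Of 126 arm ratio differences 109, 6, 4 and 7 did so. None of the turned values was called in the fit of all libraries. DESeq2 gave no adjusted p for MIR156n_3p, and with only the 6 libraries compared the filter left out MIR156n_3p for flower and leaf and MIR156j_3p for flower and root. Leaving out 1 library, 3 to 5 members were called between flower and root, 3 to 5 between flower and leaf and 2 to 4 between root and leaf, and 1 to 2, 0 and 1 to 2 of the 3 arm pairs. With only the 6 libraries compared, 2 arm pairs were called between flower and root and 1 between root and leaf, and with a pseudocount of 2 reads 2 between flower and root. With rows not joined, called values moved by over 1.5 times for MIR156j_3p (root over leaf -7.84, flower over leaf -7.77), miR156d_3p (4.37 and -4.55), miR156g_3p (root over leaf 3.90), miR156a_3p (flower over leaf -4.48), MIR156n_3p (flower over leaf -8.01) and the sequence of miR156f_3p and MIR156l_3p (flower over leaf -8.92), all called. The authors' divisor gave -4.79 (miR156a_3p) and -4.26 (miR156g_3p) for flower over root and -5.92 (MIR156j_3p) for flower over leaf, and the DESeq2 size factors -7.38 (MIR156j_3p) and 4.06 (miR156g_3p, adjusted p = 0.0499) for root over leaf, all called. Without the low-count filter MIR156p-3p was called for flower over leaf (log2 -3.26, adjusted p = 0.0148) and MIR156i_3p for root over leaf (log2 -2.84, adjusted p = 0.0321).

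Turned log2 values for root over leaf were 6.56 (MIR156n_3p) and 1.44 (MIR156p-3p) without leaf41, and for the miR156a ratio -0.20 without root23, -0.02 without root33 and -0.58 without leaf41. For flower over leaf they were 0.69 (MIR156i_3p) and 0.30 (MIR156p-3p) without leaf41, for miR156g_3p 0.34 with the authors' divisor, 0.26 without flower2 and 1.47 without leaf23, and for the ratios 0.066 (miR156a without leaf23), -0.12 (miR156g without leaf1), -0.10 (MIR156j without flower45) and -0.85 (MIR156j without leaf41). For flower over root they were -0.57 (MIR156i_3p without flower1), -0.12 (MIR156j_3p with library totals) and -0.063 (MIR156j_3p without flower45). Over single left-out libraries these results ran, for root over leaf, from -1.27 to 6.56 (MIR156n_3p), -2.72 to 1.44 (MIR156p-3p) and -0.58 to 0.42 (miR156a ratio). For flower over leaf they ran from -2.96 to 0.69 (MIR156i_3p), -4.37 to 0.30 (MIR156p-3p), -1.14 to 1.47 (miR156g_3p), -0.94 to 0.066 (miR156a ratio), -0.12 to 3.56 (miR156g ratio) and -0.85 to 0.70 (MIR156j ratio), and for flower over root from -0.57 to 1.81 (MIR156i_3p) and -0.063 to 0.66 (MIR156j_3p). The cause was not tested.

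Over all sequences, 45 were called between root and leaf, 28 higher and 17 lower, but 68 with DESeq2, 24 at a fold of at least 2 and 25 to 80 without 1 library. DESeq2 size factors split root and leaf into 21 higher and 29 lower, and unjoined rows into 14 and 36. For flower and leaf the split of 22 and 25 became 30 and 21 under the authors' divisor and 20 and 48 for unjoined rows. For flower and root 24 and 31 became 37 and 30 under that divisor. Between flower and leaf 47 were called, and 31 without flower2. All arm pairs called without 1 library numbered 5 to 21 for root and leaf (11 in all libraries), 4 to 14 for flower and leaf (7) and 11 to 23 for flower and root (21). No paired analysis was possible because the organs share at most 1 replicate number. Flower values of 1 to 3 reads limit precision.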
